A study of Homo sapiens with 6 samples.

Results

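The genes described here are 9 established targets of the transcription factor p53, MDM2, MDM4, PPM1D, BTG2, SESN1, TP53INP1, FAS, ZMAT3 and RRM2B, which were found by symbol among the 24462 gene symbols of the count tables. All 9 were present, each on a single line, and all 9 had enough reads to be tested among the 13605 genes of the fit. They were measured in the mucin-making cell line LS 174T, which comes from a human colorectal adenocarcinoma and serves as a goblet cell model, at passages between 21 and 23. Cells were given propionate, a short-chain fatty acid made by gut bacteria, at 4 mM for 4 h (3 libraries), or were left untreated as control (3 libraries). The labels name no other agent or genetic change, and the untreated cells' time of harvest is not stated in them.

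p53 is a transcription factor that is kept scarce in unstressed cells and accumulates after DNA damage and other stress. Its targets stop the cell cycle, repair DNA, adjust metabolism or start apoptosis. Some of its targets act back on it: MDM2 is the ubiquitin ligase that marks p53 for destruction, MDM4 (MDMX) binds p53 and blocks its activity, and PPM1D (WIP1) is a phosphatase that removes activating phosphates from p53 and from the kinases upstream of it. In intestinal epithelium p53 is best known for its response to DNA damage and for its frequent loss in colorectal cancer.

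The libraries held 11645597 to 12746170 reads with propionate and 11603288 to 11921005 reads in control, so a count of 3 equalled 0.235 to 0.259 CPM (the reads of a gene per 1000000 reads of its library). All 12 epithelial and goblet cell markers examined had reads in every library, and EPCAM ranged from 597 to 714 CPM, whereas KRT20 and SPDEF stayed under 6 CPM. Of 9 markers of immune cells, fibroblasts and endothelium, CD3E, DCN, VWF and CDH5 had no read in any library, and PTPRC, PECAM1 and COL1A2 had 5 reads or fewer over all 6. CD14 and COL1A1 were low but higher with propionate, at 4.78 ± 1.00 against 2.82 ± 0.671 CPM and at 3.68 ± 0.666 against 0.886 ± 0.237 CPM (mean ± SD, n = 3 each). CD14 was not called by DESeq2 (adjusted p = 0.0536) or with the block and the GC trend removed (edgeR adjusted p = 0.0683). The part of both genes in the results below was not tested. Whether the 3 libraries of each group stem from separate cultures is not stated in the labels, so the p-values reflect library-to-library spread that may be technical. In RNA of whole cultures, a change in the share of cells that express a gene and a change in RNA per cell cannot be told apart.

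The start regions of the 4 members that were lower with propionate are shown because these genes moved together, to let their sequence be compared. Each runs from 250 bases before to 50 bases after the RefSeq gene start (build GRCh38.p14), 5′ to 3′ on the gene's strand. Capitals mark the CCAAT box and the GC box GGGCGG on either strand.
MDM2, chr12:68807922-68808221, plus strand: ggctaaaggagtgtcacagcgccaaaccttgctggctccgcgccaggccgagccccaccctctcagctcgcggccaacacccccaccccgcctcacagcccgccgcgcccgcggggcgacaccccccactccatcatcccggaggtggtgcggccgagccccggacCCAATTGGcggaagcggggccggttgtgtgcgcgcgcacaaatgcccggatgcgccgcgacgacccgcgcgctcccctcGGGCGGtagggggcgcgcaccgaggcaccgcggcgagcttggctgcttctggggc
MDM4, chr1:204516156-204516455, plus strand: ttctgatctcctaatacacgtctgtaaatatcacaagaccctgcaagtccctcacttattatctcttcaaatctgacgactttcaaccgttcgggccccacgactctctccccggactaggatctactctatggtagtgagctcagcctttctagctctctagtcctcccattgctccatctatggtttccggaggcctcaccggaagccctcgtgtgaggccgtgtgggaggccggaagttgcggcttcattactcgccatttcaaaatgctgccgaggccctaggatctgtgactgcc
PPM1D, chr17:60599943-60600242, plus strand: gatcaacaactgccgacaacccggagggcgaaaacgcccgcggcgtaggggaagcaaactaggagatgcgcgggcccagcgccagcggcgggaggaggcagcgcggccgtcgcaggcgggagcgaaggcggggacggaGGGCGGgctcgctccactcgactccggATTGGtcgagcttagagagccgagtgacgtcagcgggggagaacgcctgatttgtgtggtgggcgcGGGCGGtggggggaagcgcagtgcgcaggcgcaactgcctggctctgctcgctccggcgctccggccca
SESN1, chr6:109094797-109095096, minus strand: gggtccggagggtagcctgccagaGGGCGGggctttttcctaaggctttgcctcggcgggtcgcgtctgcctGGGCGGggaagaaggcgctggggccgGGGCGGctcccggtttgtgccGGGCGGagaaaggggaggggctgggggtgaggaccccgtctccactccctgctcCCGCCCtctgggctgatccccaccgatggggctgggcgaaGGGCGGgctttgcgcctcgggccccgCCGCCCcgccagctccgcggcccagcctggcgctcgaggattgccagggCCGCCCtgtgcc

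The RefSeq table held such a window for 7 of the 9 members. No window of the 7 had an exact match to the p53 half-site consensus, and 6.54% of all 27305 windows of this length had one. The motif is 10 bases long and was searched on both strands at once because it reads the same on each. The best match had 1 mismatch in MDM2, SESN1, PPM1D, BTG2, FAS and ZMAT3 and 2 in MDM4. How many of all windows had a match with 1 mismatch was not counted, and sites outside the windows were not searched. GGGCGG occurred 8 times in the SESN1 window, 2 times in that of PPM1D, 1 time in that of MDM2 and not in that of MDM4. CCAAT occurred 2 times in the MDM2 window and 1 time in that of PPM1D. Of all windows, 44.6% held GGGCGG and 35.7% held CCAAT, and in the 4 windows shown no match of one overlapped a match of the other. The GC content of the windows was 74.7% for MDM2, 75.0% for SESN1 and 71.0% for PPM1D but 52.7% for MDM4, where the median of all windows was 58.3%. Of the 4 windows shown, that of MDM4 thus differed from the others in GGGCGG and GC content. The windows of BTG2, FAS and ZMAT3, which were not called lower, held GGGCGG 3, 1 and 1 times. Their GC content was 73.3%, 63.0% and 71.7%. Whether these features bear on the falls was not tested.

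With propionate, 4 of the 9 genes fell and none rose in the edgeR fit without a replicate block. MDM4, SESN1, PPM1D and MDM2 fell, by 0.76, 0.66, 0.66 and 0.36 on the log2 scale, and the 3 genes whose products restrain p53 were all among them. Over all tested genes 17.0% were lower, 17.2% were higher and 34.2% either way (called at a Benjamini-Hochberg adjusted p under 0.05 over all genes, edgeR quasi-likelihood fit), so 4 of 9 lower is a larger share than the background, in a set that was chosen with results of these data known. With DESeq2 and with limma-voom the counts were also 4 lower and 0 higher, and no member was higher at an unadjusted p under 0.05. The median log2 fold change of the 9 was -0.30, beside -0.01 for all genes tested. With the replicate block and each library's trend with transcript GC content removed, the median of the 9 was -0.15, beside 0.00282 for all genes, and 4 members were lower and 2 (ZMAT3 and RRM2B) higher. Of all 12722 genes tested in that fit, 21.97% were lower and 22.04% higher. In 5 of the 9 every propionate library lay below every control library, as in 22.7% of the genes tested, and in none was every propionate library above, as in 22.4%.

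**Figure D1:**
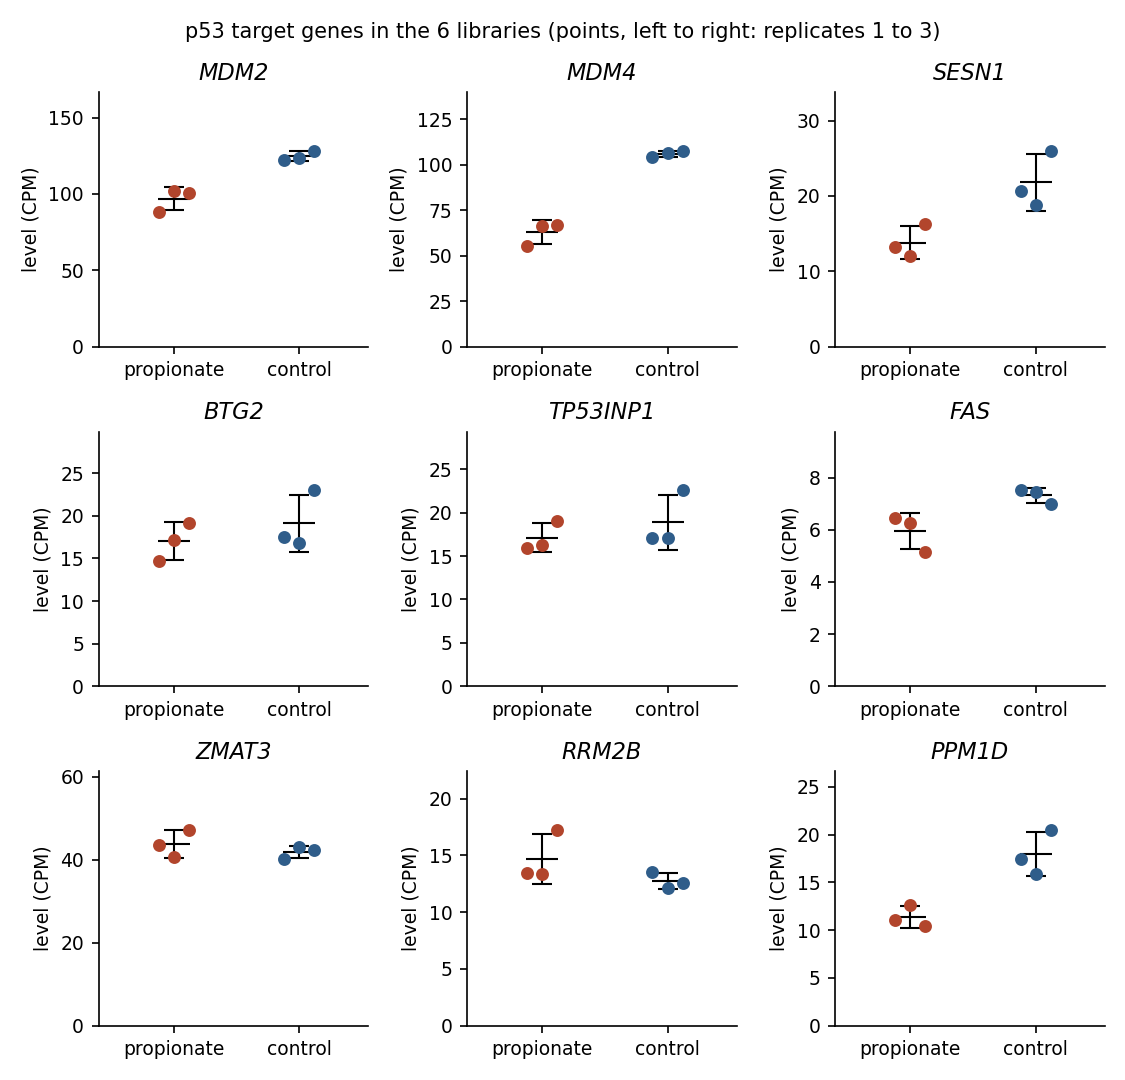
Levels in CPM of the 9 p53 target genes in the 3 propionate and 3 control libraries; points are libraries and black bars are mean ± SD, with each axis starting at 0. The groups stand apart in MDM2, MDM4, SESN1, PPM1D and FAS and overlap in BTG2, TP53INP1, ZMAT3 and RRM2B.

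Among the 3 members that restrain p53, MDM4 had the largest log2 fold change. It stood at 55.2, 66.5 and 66.7 CPM with propionate, against 104.3, 106.1 and 107.6 CPM in control. The 3 control libraries lay close together, and even the highest propionate library was well below them. The means were 62.8 ± 6.60 CPM with propionate and 106.0 ± 1.63 CPM in control (SD, n = 3 each), which is 1.69-fold lower (log2 fold change -0.76, SE 0.0927, edgeR adjusted p = 4.59e-06).

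MDM2, the paralog of MDM4 that carries the ubiquitin ligase activity, stood at 88.2, 101.9 and 100.7 CPM with propionate, against 122.2, 123.2 and 128.3 CPM in control. The groups did not overlap, and the propionate library of replicate 1 was the lowest, as it was for MDM4. MDM2 was 1.29-fold lower (log2 fold change -0.36, SE 0.0857, edgeR adjusted p = 0.00281). When each library was corrected for its trend with transcript GC content and replicate number was a block, the log2 fold change of MDM2 was -0.23 (SE 0.0614, edgeR adjusted p = 0.00295). The carboxypeptidase M gene overlaps exons of MDM2 on the opposite strand. It had 19 to 35 reads with propionate and 9 to 14 in control, against 1137 to 1268 and 1397 to 1539 for MDM2, and because no source used here tells whether reads were assigned by strand, how many reads belong to each gene is uncertain.

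PPM1D, the phosphatase that quenches the p53 response, stood at 11.1, 12.6 and 10.4 CPM with propionate, against 17.5, 15.9 and 20.5 CPM in control. All propionate libraries were below all controls. PPM1D was 1.58-fold lower (log2 fold change -0.66, SE 0.152, edgeR adjusted p = 0.00224), on 123 to 157 reads per library with propionate and 186 to 246 in control.

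Because the ratio of reads of 2 genes within a library does not depend on scaling, MDM4 was set against MDM2. The ratio of MDM4 reads to MDM2 reads was 0.625, 0.652 and 0.662 with propionate and 0.854, 0.861 and 0.839 in control. The ratio itself depends on transcript features and says nothing of which gene is more abundant, but it was lower in each propionate library than in any control library. On the log2 scale the ratio differed by -0.40 (propionate minus control, two-sided exact permutation test, p = 0.1, the smallest that 3 libraries against 3 allow).

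Of the members that act on growth and metabolism, SESN1 fell. SESN1 encodes a sestrin, a protein that restrains the growth kinase complex mTORC1 under stress. It stood at 13.2, 11.98 and 16.2 CPM with propionate, against 20.7, 18.7 and 26.0 CPM in control. The groups did not overlap, and in both groups the library of replicate 3 was the highest. SESN1 was 1.58-fold lower (log2 fold change -0.66, SE 0.156, edgeR adjusted p = 0.00267).

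Other sestrin genes went the other way. SESN2, a p53 target that is also induced by nutrient and endoplasmic reticulum stress, rose 1.53-fold, to 62.4 ± 0.288 CPM with propionate, against 40.7 ± 4.32 CPM in control (SD, n = 3 each, edgeR adjusted p = 9.44e-05). SESN3 rose 2.40-fold, at 5.09 ± 0.997 CPM with propionate and 2.11 ± 0.247 CPM in control (edgeR adjusted p = 0.00169). The ratio of SESN2 reads to SESN1 reads was 4.74, 5.22 and 3.82 with propionate and 1.99, 2.38 and 1.39 in control, with no overlap between the groups. The log2 ratio differed by 1.28 (two-sided exact permutation test, p = 0.1, the smallest possible). Every propionate library was above every control for SESN2 and below for SESN1, so this outcome was set in advance and adds no support.

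TP53INP1, whose product promotes p53 phosphorylation and takes part in autophagy, stood at 16.0, 16.3 and 19.0 CPM with propionate and 17.1, 17.1 and 22.6 CPM in control. The groups overlapped, although each propionate library was below the control of the same replicate number. The log2 fold change was -0.15 with a 95% interval of -0.45 to 0.16 (edgeR adjusted p = 0.475). The GC-corrected blocked fit put it at 0.01.

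BTG2, an antiproliferative gene that p53 induces early and that recruits the deadenylation machinery to mRNAs, stood at 14.7, 17.1 and 19.2 CPM with propionate and 17.5, 16.9 and 23.0 CPM in control. The groups overlapped, and BTG2 was higher with propionate in 1 of the 3 same-number pairs. Its log2 fold change was -0.17 with a 95% interval of -0.49 to 0.15 (edgeR adjusted p = 0.420).

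FAS, the death receptor through which FAS ligand starts the extrinsic route of apoptosis, was the member with the fewest reads. It stood at 6.44, 6.27 and 5.16 CPM with propionate and 7.52, 7.45 and 7.00 CPM in control. Every propionate library was below every control, but the difference did not pass the test (log2 fold change -0.30, 95% interval -0.71 to 0.12, edgeR adjusted p = 0.267). The smooth muscle actin gene ACTA2 overlaps FAS exons on the opposite strand, with 37 to 65 reads with propionate and 38 to 49 in control against 61 to 83 and 84 to 87 for FAS. As for MDM2, the split of reads between FAS and ACTA2 is uncertain. The gene of the ligand, FASLG, had no read in any library.

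ZMAT3 encodes a zinc finger RNA-binding protein that alters splicing and mRNA stability downstream of p53. It stood at 43.5, 40.7 and 47.2 CPM with propionate and 40.2, 43.0 and 42.4 CPM in control. The groups overlapped, and the log2 fold change was 0.06 with a 95% interval of -0.15 to 0.27 (edgeR adjusted p = 0.667). With the replicate block and the GC trend removed it was 0.21, called higher.

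RRM2B encodes p53R2, the ribonucleotide reductase subunit that supplies deoxynucleotides for DNA repair outside S phase. It stood at 13.5, 13.3 and 17.3 CPM with propionate and 13.6, 12.2 and 12.6 CPM in control. The library of propionate replicate 3 stood above the rest, and the other 5 lay close together. The log2 fold change was 0.20 with a 95% interval of -0.12 to 0.52 (edgeR adjusted p = 0.335). The S phase counterpart RRM2 fell 1.60-fold, to 257.6 ± 37.3 CPM with propionate, against 411.7 ± 28.3 CPM in control (SD, n = 3 each, edgeR adjusted p = 2.42e-05), and RRM1, the large subunit that both use, fell 1.26-fold (edgeR adjusted p = 0.00414). The ratio of RRM2B reads to RRM2 reads was 0.0460, 0.0513 and 0.0788 with propionate and 0.0305, 0.0303 and 0.0323 in control, again without overlap. The log2 ratio differed by 0.88 (two-sided exact permutation test, p = 0.1, the smallest possible). These 3 ratios were chosen after their genes' values were seen, and over the 3 tests the adjusted p was 0.1 for each.

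**Figure D2:**
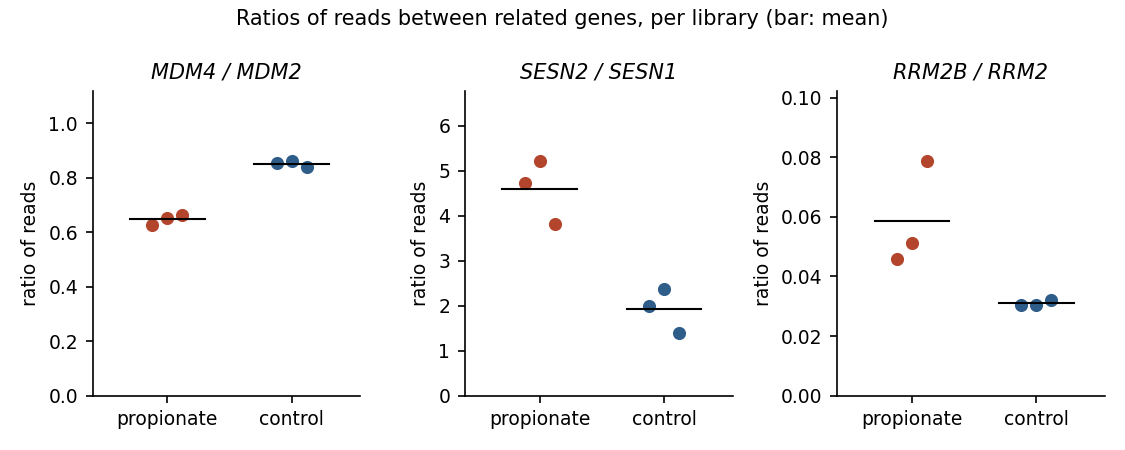
Ratio of reads between related genes in each of the 3 propionate and 3 control libraries (points; bars are means; axes start at 0). MDM4 to MDM2 is lower with propionate (0.625 to 0.662, against 0.839 to 0.861), and SESN2 to SESN1 and RRM2B to RRM2 are higher.

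Transcript composition, which the choice of genes did not use, varied among the members. The GC content of their reference transcripts (the longest basic coding transcript in GENCODE release 29) ran from 36.4% for RRM2B to 50.3% for BTG2, where the median of the 12722 tested genes with a value was 48.9%. MDM2, MDM4, SESN1 and PPM1D were in the second quintile of these genes from the low end, in which 21.3% of genes were lower and 9.39% higher with propionate. TP53INP1, FAS, ZMAT3 and RRM2B were in the quintile of lowest GC content, with 22.6% lower and 8.13% higher, and BTG2 was in the third quintile, with 18.4% lower. In the quintile of highest GC content only 8.76% were lower, and 32.9% were higher. The annotated 3′ untranslated regions of the members ran from 1110 bases for SESN1 to 10840 bases for MDM2 (median of all tested genes 1268 bases), and 5 members were in the quintile with the longest, in which 18.3% of genes were lower and 17.4% higher.

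In the blocked fit with correction for GC content, the same 4 members were lower, with log2 fold changes of -0.63 for MDM4, -0.56 for PPM1D, -0.54 for SESN1 and -0.23 for MDM2. In that fit ZMAT3 and RRM2B passed the threshold as higher, with log2 fold changes of 0.21 (SE 0.0857, edgeR adjusted p = 0.0438) and 0.37 (SE 0.142, edgeR adjusted p = 0.0357). Neither was called in any of the other 15 alternatives.

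**Figure D3:**
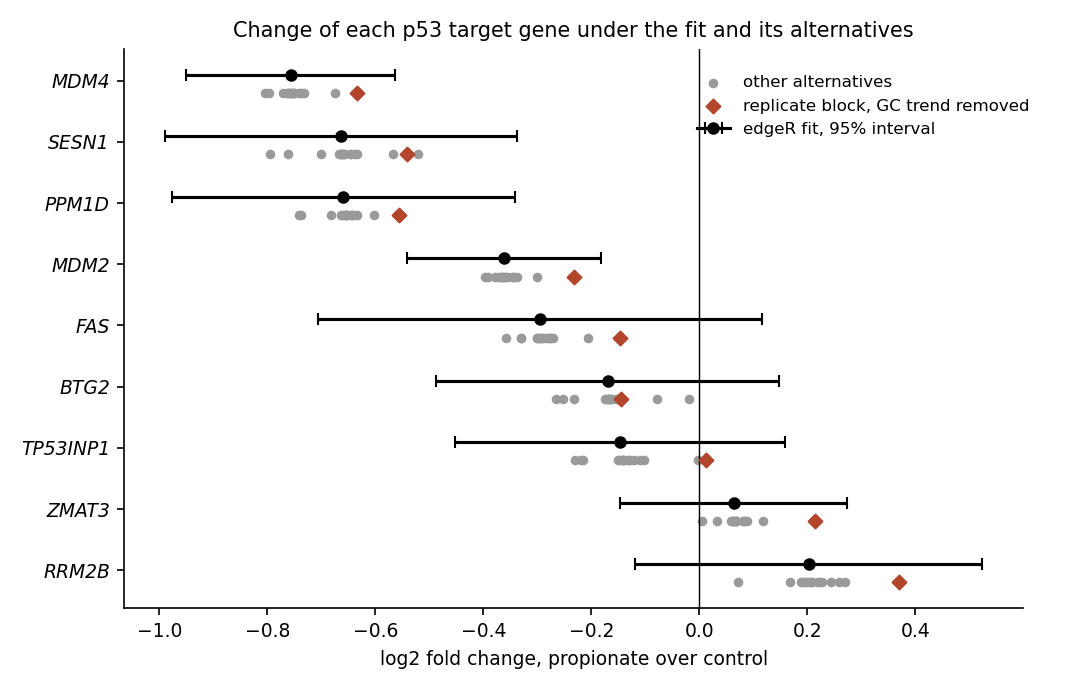
Log2 fold change (propionate over control) of each of the 9 genes: black points and lines are the edgeR fit with its 95% interval, grey points 15 alternatives, and red diamonds the blocked fit with the GC trend removed. The intervals of MDM4, SESN1, PPM1D and MDM2 lie below 0 and those of the other 5 include 0; TP53INP1 is above 0 at its red diamond only.

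The libraries' profiles of MDM2 and BTG2 were compared with those of genes averaging at least 20 CPM by Pearson correlation of log2 CPM over the 6 libraries, as a description. C14orf159, N4BP2L2 and the noncoding RNA gene SNHG6 were most like MDM2 (r = 0.998, 0.997 and 0.996 among 7248 genes), and all 3 were lower with propionate, with log2 fold changes of -0.45, -0.48 and -0.22. Those most like BTG2 were NDUFB7, PDIA4 and PPP1CB (r = 0.978, 0.969 and 0.961), none of which passed the test. Over 6 libraries in 2 groups, a difference between the groups that 2 genes share is enough for a high r.

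The rest of the pathway was described through 71 other p53 targets in 5 lists, of which 67 were tested. Of these, 13 were higher and 9 lower, which makes 19.4% higher and 13.4% lower beside 17.2% and 17.0% of all tested genes. With the replicate block 17 were higher and 15 lower, which makes 25.4% and 22.4% beside 21.9% and 22.6% of all tested genes in that fit. Their median log2 fold change was 0.07 without the block. With the block and the GC trend removed, 22.04% of all tested genes were higher and 21.97% lower. The shares over all tested genes in each of these fits also apply to that fit's counts for each list below. Differences between the lists were not tested.

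Among 9 targets that arrest the cell cycle, 1 was higher and 1 lower, with a median log2 fold change of 0.16. The gene that rose was CDKN1A, which encodes the cyclin-dependent kinase inhibitor p21. CDKN1A stood at 191.5, 233.4 and 238.7 CPM with propionate, against 104.3, 160.7 and 134.7 CPM in control, which is 1.66-fold higher (log2 fold change 0.73, SE 0.121, edgeR adjusted p = 0.000111). E2F7, a repressor of E2F target genes, fell 1.93-fold, to 5.00 ± 0.745 CPM with propionate, against 9.61 ± 1.59 CPM in control (SD, n = 3 each, edgeR adjusted p = 0.00139). GADD45A was not called (log2 fold change 0.34, edgeR adjusted p = 0.0568), but was called higher with the block (0.35, adjusted p = 0.00382).

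Of 20 tested targets of apoptosis, 3 were higher and 6 lower, with a median of -0.19, and with the replicate block 3 were higher and 10 lower. PHLDA3, an inhibitor of the survival kinase AKT, fell 1.65-fold, to 19.8 ± 2.69 CPM with propionate, against 32.6 ± 2.91 CPM in control (SD, n = 3 each, edgeR adjusted p = 0.00021). TP53I3 (1.51-fold, edgeR adjusted p = 0.00823), the decoy receptor gene TNFRSF10D (1.35-fold, adjusted p = 0.00936) and EI24 (1.20-fold, adjusted p = 0.0128) were lower as well. NINJ1 (1.31-fold), SIVA1 (1.25-fold) and the death receptor gene TNFRSF10B (1.22-fold, edgeR adjusted p = 0.0193) were higher. BAX, BBC3 (PUMA) and PMAIP1 (NOXA), the classical p53 targets of the mitochondrial route, had log2 fold changes of 0.26, 0.02 and -0.21 and were not called (edgeR adjusted p = 0.322, 0.893 and 0.380). With the block and the GC trend removed, BBC3 was called lower (log2 fold change -0.33, edgeR adjusted p = 0.000134) and NINJ1 was no longer called (adjusted p = 0.132).

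Of 4 repair targets, DDB2, a damage sensor of nucleotide excision repair, was 1.36-fold lower, at 41.4 ± 3.64 CPM with propionate and 56.5 ± 5.18 CPM in control (SD, n = 3 each, edgeR adjusted p = 0.00253). None of the 4 was higher by edgeR without the block, DESeq2 or limma-voom, nor at an unadjusted p under 0.05. XPC, another damage sensor of that pathway, was called higher with the replicate block (log2 fold change 0.17, edgeR adjusted p = 0.0312). With the GC trend removed as well, XPC was not called (log2 fold change 0.15, edgeR adjusted p = 0.0654).

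Of 20 targets of metabolism and stress defence, 7 were higher and none lower in the fit without the block, with a median of 0.14. DESeq2 and limma-voom gave the same counts. At an unadjusted p under 0.05, 2 genes were lower, and 2 were lower in the fit with the replicate block. Once the GC trend was removed as well, 8 were higher and 3 lower. The lower ones were SCO2, GPX1 and FDXR, with log2 fold changes of -0.51, -0.31 and -0.21 in that fit. CYFIP2, a component of actin regulatory complexes, rose 1.76-fold, to 75.7 ± 6.32 CPM with propionate, against 43.0 ± 1.21 CPM in control (SD, n = 3 each, edgeR adjusted p = 2.92e-06). SESN2 followed, then ALDH4A1, a mitochondrial enzyme of proline breakdown (1.38-fold, adjusted p = 0.00297), and the polyamine acetyltransferase gene SAT1 (1.37-fold, adjusted p = 0.00437). Of 14 tested secreted and other targets, 2 were higher and 1 lower. RAP2B was among the higher (1.29-fold, edgeR adjusted p = 0.0165), and SPATA18 was lower (1.72-fold, adjusted p = 0.0452), though not by DESeq2 (adjusted p = 0.0627) or with the block and the GC trend removed (edgeR adjusted p = 0.0568). With the block alone 4 were higher and 1 lower. GDF15, a secreted p53 and stress target, had a log2 fold change of 0.18 and was not called (edgeR adjusted p = 0.130), but was with the block (0.18, adjusted p = 0.0107). With the GC trend removed as well, GDF15 was not called and its log2 fold change was -0.06 (edgeR adjusted p = 0.426).

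**Figure D4:**
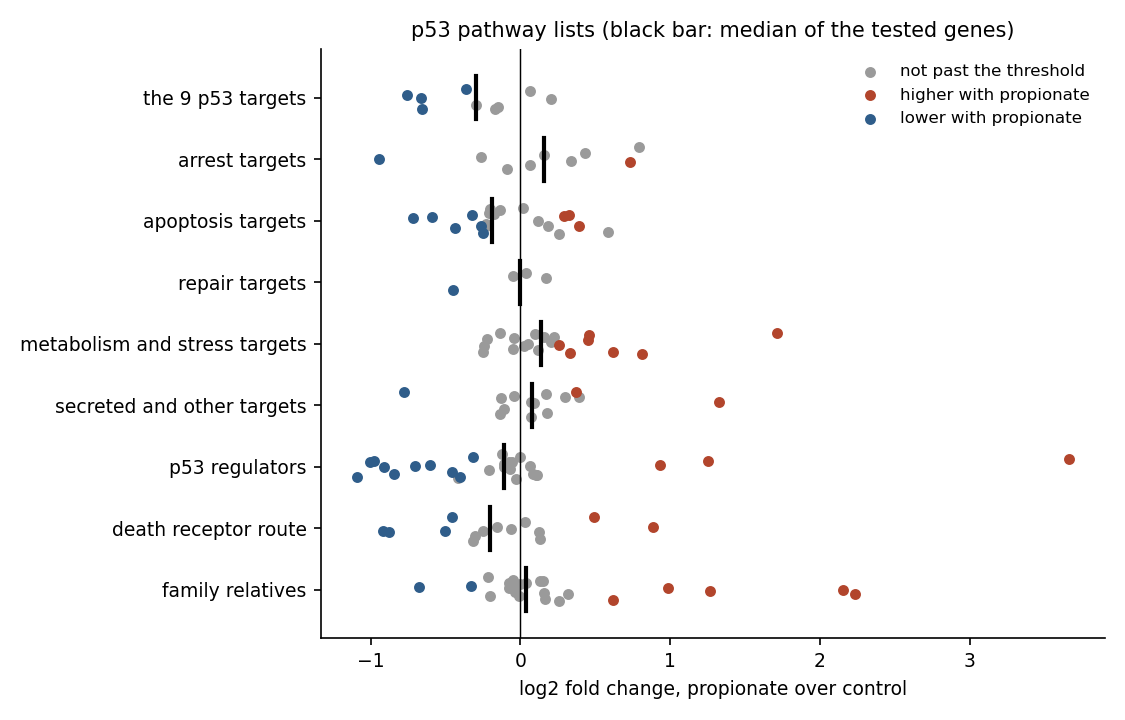
Log2 fold change (propionate over control) of each tested gene in the p53 pathway lists; red points were higher and blue points lower (edgeR adjusted p under 0.05), grey points were not called, and black bars are list medians. The 9 targets have the lowest median (-0.30), the metabolism and stress list has 7 higher and no lower gene in the fit without the block, and the point farthest to the right is USP2, which had 10 reads over the 3 controls.

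Of 28 tested regulators of p53, 3 were higher and 10 lower, with a median of -0.11. With the replicate block 3 were higher and 11 lower, and with the GC trend removed as well 5 were higher and 11 lower. The falls with the smallest p were those of the acetyltransferase genes CREBBP (2.13-fold, edgeR adjusted p = 1.31e-07), KAT5 (1.97-fold, adjusted p = 4.53e-07) and EP300 (1.88-fold, adjusted p = 4.59e-07), whose products acetylate p53 and histones. RCHY1 (PIRH2), another ubiquitin ligase for p53 and itself a target of it, fell 2.00-fold, at 12.05 ± 1.21 CPM with propionate and 24.1 ± 3.91 CPM in control (SD, n = 3 each, adjusted p = 3.73e-05). COP1, listed under its older symbol RFWD2, is a further ligase for p53 and was not called (log2 fold change -0.21, edgeR adjusted p = 0.223).

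PPP1R13L, which encodes iASPP, an inhibitor of p53, rose 2.38-fold, at 45.3 ± 6.08 CPM with propionate and 19.0 ± 0.811 CPM in control (SD, n = 3 each, edgeR adjusted p = 2.59e-07). PPP1R13B, which encodes ASPP1, a protein that promotes p53's apoptotic function, rose 1.91-fold (adjusted p = 5.67e-05). The deubiquitinase gene USP2, whose product acts on MDM2, had 47, 39 and 52 reads with propionate and 0, 3 and 7 in control (edgeR adjusted p = 2.74e-05). CDKN2A, the locus of the MDM2 inhibitor ARF, had no read with propionate and 3 in control, and was not tested.

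Of 14 tested genes of the death receptor route around FAS, 2 were higher and 4 lower, with a median of -0.20, and with the replicate block 2 were higher and 7 lower. CFLAR, which encodes the caspase-8 inhibitor FLIP, fell 1.89-fold, at 29.7 ± 6.06 CPM with propionate and 56.3 ± 3.49 CPM in control (SD, n = 3 each, edgeR adjusted p = 1.37e-05). DAXX, FAIM and CASP8 were also lower (1.37-fold, 1.84-fold and 1.42-fold), and the groups of CASP8 overlapped. The receptor genes TNFRSF21 and TNFRSF25 were higher (1.84-fold and 1.41-fold). With the block and the GC trend removed CASP8 and TNFRSF25 were not called (edgeR adjusted p = 0.0541 and 0.0682).

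Of 23 tested relatives of the members in their gene families, 5 were higher and 2 lower. Besides the sestrins, the higher ones were 3 relatives of PPM1D. PPM1J stood at 12.1 ± 2.49 CPM with propionate and 2.71 ± 0.289 CPM in control, PPM1N at 6.77 ± 2.50 and 1.43 ± 0.434 CPM, and PPM1M at 12.1 ± 1.13 and 6.10 ± 0.971 CPM (SD, n = 3 each; edgeR adjusted p = 5.96e-07, 2.91e-05 and 0.000336). BTG1 and BTG3, the relatives of BTG2, were not called (log2 fold changes -0.08 and -0.08, edgeR adjusted p = 0.575 and 0.642). RRM2 and RRM1 were the 2 lower ones.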

How the data were processed

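For each library the authors deposited a table of read counts by gene symbol, not normalized. Libraries were made from total RNA with a Lexogen QuantSeq kit, per the labels' protocols. QuantSeq kits read transcripts near their 3′ ends, but the catalogue number given may belong to another kit, so whether the reads are 3′ tags is not settled here. The submitters' processing notes name Bowtie2, edgeR, hg19 and GRCh37. Which counter, strand setting and annotation were used is not given in the sources used here. Counts of repeated symbols were summed. Groups and replicate numbers come from the sample titles.

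Tests were run in edgeR 4.0.16 (under R 4.3.3) on these counts: quasi-likelihood F test, TMM factors, filterByExpr, no covariate, two-sided, with Benjamini-Hochberg adjustment over all 13605 tested genes. CPM used the TMM factors (marker ranges and the value of 3 reads used library totals, and the latter covers counting error only). The code was tested on simulated data. The members, lists and alternatives were chosen with earlier results of these data known; GADD45A, BAX, BBC3, PMAIP1, GDF15, COP1, BTG1 and BTG3 were named for their roles with their values seen. The other named genes are the members, CDKN1A, and up to 4 called genes per list and direction with the smallest p, apart from genes set beside a member. Some results that this rule selects are not reported here.

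Same-number libraries deviated together (correlations 0.240, 0.396 and 0.442 over 9286 genes above 10 CPM, and -0.354 to 0.010 for unlike numbers). They were treated as pairs only in the fits with the replicate block, on the evidence of the data and not of a label. The edgeR fit without a block and the permutation tests of the ratios did not use the pairing. The alternatives comprised DESeq2 1.42.0, limma-voom (from limma 3.58.1), other scaling factors, filters and thresholds, the replicate block, the block with a spline (4 degrees of freedom) on transcript GC content removed, and leaving out each library.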

Additional observations from a re-analysis of the deposited data

How the results depend on the processing

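The falls of MDM2, MDM4, SESN1 and PPM1D kept their direction and their side of the threshold in all 16 alternatives, with log2 fold changes of -0.40 to -0.23, -0.80 to -0.63, -0.80 to -0.52 and -0.74 to -0.56 and adjusted p up to 0.0228, 7.74e-05, 0.0180 and 0.0134. CDKN1A and SESN2 were higher in all 16. BTG2 and FAS were called in none of the 16, and their log2 fold changes ran from -0.27 to -0.02 and from -0.36 to -0.15. TP53INP1 was not called either, and reached a log2 fold change of 0.012 with the replicate block and the GC trend removed. In that fit 2 members were higher, ZMAT3 and RRM2B, against 0 otherwise. The replicate block, which rests on the pairing seen in the data, alone changed no call of a member. It gave 15 lower and 17 higher genes among the other p53 targets, and 14 and 16 with the GC trend removed, against 9 and 13. The shares over all genes were 22.6% lower and 21.9% higher with the block, against 17.0% and 17.2%. With the GC trend removed as well, they were 21.97% lower and 22.04% higher. At an adjusted p under 0.01 there were 3009 called genes (4659 at 0.05), 1424 of them lower (2316), and 8 higher and 5 lower of the other p53 targets (13 and 9), because the threshold is stricter. Without any 1 library the members gave 4 lower and 0 higher each time. FAS, with 61 to 87 reads per library, had the widest interval of the members, so a change of its size in either direction is hard to detect at this depth.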
